A study of Mus musculus with 8 samples.

Results

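The 10 genes described here are grouped as suppressive effector molecules of regulatory T (Treg) cells. They encode the cytokine Il10, the cytokine subunit Ebi3, the granule proteins Gzmb and Prf1, the fibrinogen-like protein Fgl2 and the growth factor Areg. The others are the receptor Klrg1, the galectin Lgals1, the TGF-β docking protein Lrrc32 and the opioid precursor Penk. The 10 genes were chosen by name, with earlier results of these data known, among the 27594 genes of the deposited count table. All 10 were found there. mRNA was sequenced from 8 libraries in 4 groups of 2 replicates. The cells were CD4+YFP+ Treg cells of C57BL/6 mice aged 6 to 8 weeks, sorted from spleen and peripheral lymph nodes, by gates that included CD44, as resting (rTreg, CD44low) or activated (aTreg, CD44high) cells. WT mice carried Foxp3-YFP-Cre alone, and Foxp1 cKO mice carried it together with Foxp1fl/fl, so every group, the controls included, expressed Cre and YFP from the Foxp3 locus. Deletion by this Cre acts in cells that express Foxp3. The sources do not say whether a replicate was 1 mouse or a pool of mice, and the spread between replicates may therefore be partly technical.

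Treg cells restrain other lymphocytes by several routes at once. IL-10 is secreted and damps inflammatory responses at mucosal surfaces. EBI3 needs a partner chain, p35 (Il12a) for IL-35 or p28 (Il27) for IL-27. GARP, the product of Lrrc32, holds latent TGF-β1 on the Treg surface, where integrins release it. Perforin (Prf1) opens membranes for granzymes such as GZMB, amphiregulin (Areg) is a ligand of the EGF receptor that acts in tissue repair, and KLRG1 is an inhibitory lectin-like receptor that marks terminally differentiated effector cells. Several of these molecules are known mainly from effector Treg cells, the state that the aTreg gate selects.

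Between 6373170 and 15268623 counts fell on genes in each library. A level of 3 counts, taken as the floor in a library, corresponds to between 0.192 and 0.478 CPM, the count scaled to the library's TMM-adjusted total. The libraries carried Treg genes: summed over Foxp3, Il2ra, Ikzf2, Ctla4 and Tnfrsf18 they held 1487 to 3174 CPM. Cd44 was at 29.6 to 45.3 CPM in rTreg and 174 to 214 CPM in aTreg libraries. The count of Foxp1, the targeted gene, fell in cKO aTreg cells (log2 fold change -1.03, SE 0.096, adjusted p = 0.00194) but was -0.12 (SE 0.094, adjusted p = 0.460) in cKO rTreg cells. This count therefore checks the genotype label in aTreg cells and not in rTreg cells. It is taken over the whole gene, and the study reported complete deletion of Foxp1 in YFP+ Treg cells of this genotype. Xist had at least 15098 counts in every replicate 2 library and at most 3 in every replicate 1 library, so sex and replicate number cannot be told apart. Markers of other cells also moved. The 8 B and plasma cell markers summed to 174 to 254 CPM in rTreg and 646 to 810 CPM in aTreg libraries, mostly through Ighm. Cd79b was also higher in aTreg libraries (4.33 to 5.34 CPM in rTreg, 14.7 to 17.3 CPM in aTreg), as was Cd22 (0.236 to 1.43 and 13.1 to 19.9 CPM). Cd79a was not (3.46 to 4.33 and 2.19 to 3.14 CPM), and Ms4a1 had at most 4 counts in any library. The 7 granulocyte and mast cell markers summed to 12.4 and 6.28 CPM in cKO rTreg libraries and 26.0 and 3.16 CPM in cKO aTreg libraries, against 1.20 to 3.40 CPM in WT libraries. The part of these cells in the results was not tested.

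The deposited counts were made on mm10, and gene positions below are those of GENCODE M21 on GRCm38, the same build. All 10 genes are annotated as protein coding. Il10 lies on chromosome 1 (131019845 to 131024974, plus strand), Lrrc32 on chromosome 7 (98489283 to 98502181, plus strand), Klrg1 on chromosome 6 (122270596 to 122282882, minus strand), Lgals1 on chromosome 15 (78926725 to 78930465, plus strand) and Penk on chromosome 4 (4133531 to 4138819, minus strand). Ebi3 lies on chromosome 17 (55952640 to 55957022, plus strand), Gzmb on chromosome 14 (56258838 to 56262260, minus strand), Fgl2 on chromosome 5 (21372642 to 21378374, plus strand), Areg also on chromosome 5 (91139599 to 91148432, plus strand) and Prf1 on chromosome 10 (61297833 to 61304680, plus strand). The library kit does not mark strand. Ebi3 shares 270 exonic bases with the antisense gene Gm16712 and Penk shares 233 with A830012C17Rik, so reads there cannot be told apart from those of the partner. Fgl2 lies within the bounds of Ccdc146 but shares 0 exonic bases with it.

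RefSeq promoter windows of GRCm38.p6, from 250 bases before to 50 after the annotated start, were available for 5 of the 10 genes, namely Fgl2, Areg, Prf1, Gzmb and Ebi3. In these windows 4 letter patterns on both strands were searched, with no overlap between them, and 1 was found. The AP-1 pattern TGANTCA, bound by factors such as BATF, stood in the windows of Fgl2 and Gzmb, 2 of 5, against 7.81% of all 32851 windows. The forkhead pattern TGTTTAC (3.65% of windows), the Blimp-1 pattern GAAAGTG (4.81%) and the Maf pattern TGCTGAC (4.67%) were in 0 of the 5. The windows of Fgl2 and Gzmb are shown because they hold the AP-1 match, which is in capitals. A match in these letters is a description and no evidence of binding. The Fgl2 window is chr5:21372423-21372722 (plus strand), with the match starting 16 bases before the RefSeq start, and the Gzmb window is chr14:56262285-56262584 (minus strand), with the match 58 bases before it.
Fgl2: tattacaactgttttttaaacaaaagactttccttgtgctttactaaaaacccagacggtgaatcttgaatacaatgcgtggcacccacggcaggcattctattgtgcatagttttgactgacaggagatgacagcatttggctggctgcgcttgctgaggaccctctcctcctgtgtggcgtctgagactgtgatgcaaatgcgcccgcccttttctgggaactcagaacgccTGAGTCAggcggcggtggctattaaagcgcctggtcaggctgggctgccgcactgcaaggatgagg
Gzmb: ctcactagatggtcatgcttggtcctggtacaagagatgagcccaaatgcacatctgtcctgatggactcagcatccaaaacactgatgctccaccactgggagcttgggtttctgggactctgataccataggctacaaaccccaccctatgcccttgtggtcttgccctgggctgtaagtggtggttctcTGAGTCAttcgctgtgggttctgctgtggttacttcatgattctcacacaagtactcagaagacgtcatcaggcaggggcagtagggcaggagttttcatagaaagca

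The aTreg state carried most of these genes. In WT cells 8 of the 10 rose in aTreg against rTreg cells and 0 fell, where 9.50% of all 14540 genes tested rose and 2.83% fell at the same thresholds (adjusted p under 0.05 and a 2-fold change). In cKO cells the same 8 rose and Prf1 fell, against 11.3% and 4.39% of all genes. The median log2 fold change of the 10 was 4.996 in WT and 4.75 in cKO cells, against -0.0046 and -0.018 over all genes. Lrrc32 was not called in either genotype. All 10 passed the filter on low counts, Il10, Ebi3, Gzmb and Klrg1 through their aTreg libraries. The members were also chosen with earlier results of these data known. Their counts and medians are therefore no measure of how often such genes change. In bulk samples, fewer cells that express a gene and less RNA per cell cannot be told apart.

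**Figure D1:**
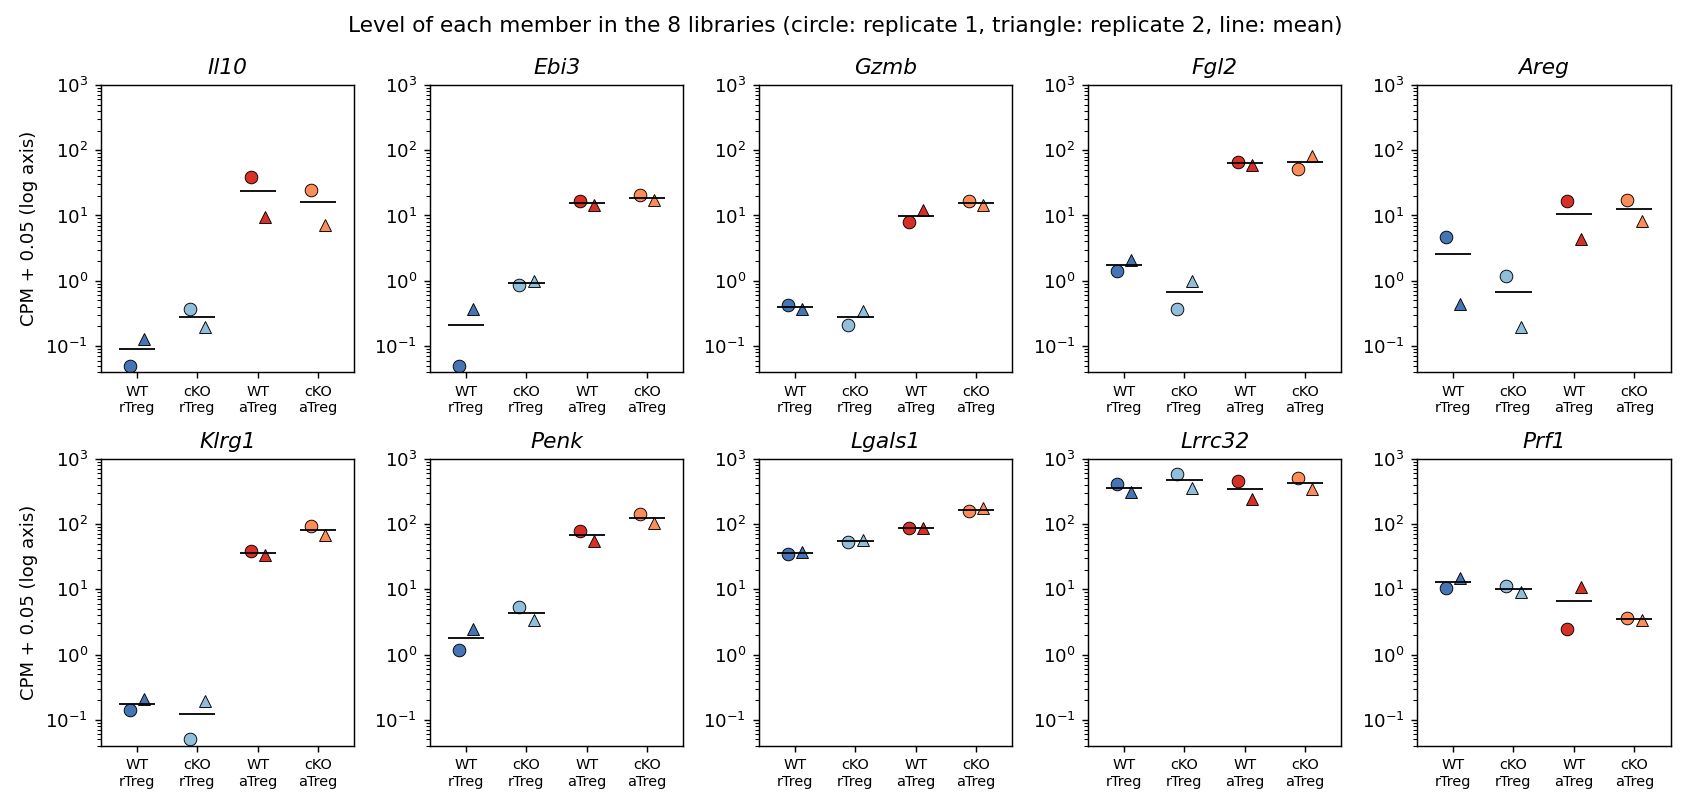
CPM plus 0.05 (log axis) of each of the 10 genes in the 8 libraries, by group, with replicate 1 as circles, replicate 2 as triangles and the mean as a line. The aTreg libraries lie far above the rTreg libraries for Il10, Ebi3, Gzmb, Fgl2, Klrg1 and Penk, while Lrrc32 is at 242 to 576 CPM in all 8 libraries.

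Compared per length by the deposited FPKM values, the members differed widely among themselves. In WT rTreg cells Lrrc32 (75.8 ± 17.2 FPKM, SD, n = 2) and Lgals1 (44.5 ± 0.265) stood above all other members, of which Prf1 was next at 4.84 ± 1.20. In WT aTreg cells the order was Lgals1 (112 ± 0.933), Lrrc32 (75.4 ± 32.2), Penk (41.8 ± 10.7) and Klrg1 (26.0 ± 2.47), and Prf1 was lowest at 2.62 ± 2.35. In cKO aTreg cells the same 4 genes led, with Lgals1 at 207 ± 7.67, Lrrc32 at 91.9 ± 26.9, Penk at 75.8 ± 20.2 and Klrg1 at 57.5 ± 14.2. Next in WT aTreg cells came Il10 (18.9 ± 16.2), Fgl2 (17.0 ± 1.01), Ebi3 (13.7 ± 1.57) and Areg (8.77 ± 7.30), of which the neighbours Il10 and Fgl2 overlapped, as did Ebi3 and Areg, while Fgl2 and Ebi3 did not.

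Il10, the anti-inflammatory cytokine, was close to absent in resting cells. It had 0 and 1 counts in WT rTreg cells and 2 and 2 in cKO rTreg cells, all at or under the floor of 3. In WT aTreg cells it had 352 and 148 counts (38.6 and 9.49 CPM), and in cKO aTreg cells 293 and 100 (24.6 and 7.19 CPM). Replicate 1 held 4.07-fold the level of replicate 2 in WT aTreg and 3.42-fold in cKO aTreg cells, and the aTreg groups overlapped each other but not the rTreg groups. WT aTreg cells had 477-fold the level of WT rTreg cells per depth (95% exact counting interval 85.3 to 18890, from 500 against 1 count), and cKO cells 76.5-fold (29.6 to 282). Both differences passed the test (adjusted p = 1.496e-05 and 2.71e-05). Between genotypes in aTreg cells the log2 difference was -0.54 (SE 0.19, adjusted p = 0.139), lower in both pairs of replicates but not called. No genotype ratio is given for rTreg cells because both groups are at the floor.

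Most transcription factors listed as acting on Il10 in T cells were also higher in aTreg cells. Of 12 listed and tested, 9 rose and 1 fell in WT aTreg cells (median log2 fold change 2.56), and 10 rose and 1 fell in cKO aTreg cells (median 3.10). Of all genes, 9.50% rose and 2.83% fell in WT, and 11.3% rose and 4.39% fell in cKO. Tbx21 (T-bet) was higher by 4.49 in WT and 4.60 in cKO aTreg cells on the log2 scale, Maf (c-Maf) by 3.84 and 4.88, Bhlhe40 by 3.21 and 3.26 and Ahr by 2.99 and 4.06. Bach2, a repressor of the effector programme, fell (-1.53 in WT and -2.51 in cKO). Stat3 (-0.12 and -0.08) was not called in either genotype, and Gata3 (0.997) was just under the 2-fold threshold in WT cells. Between genotypes, Maf fell in cKO rTreg cells (-0.90, SE 0.13, adjusted p = 0.00639), and in cKO aTreg cells Rora (0.71) and Prdm1 (0.65) rose while Bach2 fell (-1.25). Without the replicate block the Rora and Prdm1 calls were lost (adjusted p = 0.235 and 0.172), while those of Maf and Bach2 held (0.029 and 0.024).

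Ebi3 was also higher in aTreg cells. It had 0 and 4 counts in WT rTreg, 5 and 13 in cKO rTreg, 153 and 224 in WT aTreg and 241 and 236 in cKO aTreg cells. All aTreg libraries were above all rTreg libraries, with means of 15.6 ± 1.72 CPM in WT and 18.6 ± 2.29 CPM in cKO aTreg cells (SD, n = 2). WT aTreg cells held 89.96-fold the WT rTreg level (exact counting interval 34.8 to 332) and cKO aTreg cells 20.6-fold the cKO rTreg level (12.9 to 35.1), and both differences were called (adjusted p = 4.65e-05 and 5.92e-05). Between genotypes the log2 difference was 2.35 in rTreg (SE 0.74, adjusted p = 0.0809, on 4 against 18 counts) and 0.26 in aTreg cells (SE 0.22, adjusted p = 0.550). Without WT rTreg replicate 1 the rTreg difference was 1.39 (adjusted p = 0.252). Without WT rTreg replicate 2, the library with all 4 WT counts, it was called (adjusted p = 0.0416), and since the WT group is then at 0 counts its size is not given. Its partner chains were at or under the floor in every library, with at most 2 counts of Il12a and at most 3 of Il27.

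Among the 13 listed cytokine and receptor genes of the IL-10 and IL-12 families, 10 were in the files and 6 were tested. Il12rb1, a receptor chain for IL-12 and IL-23, and Il10ra, the IL-10 receptor chain, rose in aTreg cells of both genotypes (1.88 and 1.498 in WT, 1.86 and 2.32 in cKO, log2). Il10ra fell in cKO rTreg cells (-0.78, SE 0.099, adjusted p = 0.00376). Il6st, the shared receptor chain gp130, was lower in cKO cells in both subsets, by -0.64 in rTreg and -1.29 in aTreg cells (adjusted p = 0.00283 and 0.000323). It fell in cKO aTreg against cKO rTreg cells (-1.21). Without the replicate block the Il6st genotype call was lost in rTreg cells (adjusted p = 0.105) and held in aTreg cells (0.027).

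Fgl2, a secreted fibrinogen-like effector, had 15 and 26 counts in WT rTreg, 2 and 13 in cKO rTreg, 593 and 939 in WT aTreg and 622 and 1115 in cKO aTreg cells. The aTreg libraries held 52.1 to 80.1 CPM and the rTreg libraries 0.319 to 2.04 CPM. The log2 fold change between subsets was 5.19 in WT (SE 0.25, adjusted p = 1.24e-05) and 6.50 in cKO cells (SE 0.30, adjusted p = 5.73e-06). Fgl2 is also expressed in myeloid cells, and the 8 myeloid and dendritic markers together summed to at most 7.49 CPM in any library. The part of such cells in the Fgl2 level was not tested. The genotype difference in aTreg cells was 0.06 (log2, SE 0.17, adjusted p = 0.879) and was not called. In rTreg cells the difference was -1.26 (SE 0.52, adjusted p = 0.162) and was called with WT aTreg replicate 1 left out (adjusted p = 0.0325) and with WT aTreg replicate 2 left out (0.0323), while without cKO rTreg replicate 2 it was -2.25 (adjusted p = 0.327).

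Areg, the EGF receptor ligand, varied with both the replicate number and the subset. Counts were 50 and 5 in WT rTreg, 7 and 2 in cKO rTreg, 150 and 67 in WT aTreg and 206 and 114 in cKO aTreg cells. Replicate 1 was higher than replicate 2 in every group, by 11.7-fold, 7.73-fold, 3.83-fold and 2.11-fold in that order, and the 4 groups overlapped with their neighbours. It rose in aTreg cells in both genotypes (log2 2.15, SE 0.43, adjusted p = 0.00752 in WT, and 4.64, SE 0.57, adjusted p = 0.000529 in cKO). The WT call was lost without the replicate block (adjusted p = 0.251) and without WT aTreg replicate 1 (0.0603). The genotype differences, -2.00 in rTreg (SE 0.72, adjusted p = 0.114) and 0.49 in aTreg cells (SE 0.36, adjusted p = 0.466), were not called, though the rTreg difference was called with no filter on low counts (adjusted p = 0.00763) and on the rTreg libraries alone (0.0393). Without WT rTreg replicate 1, which held 50 of the 55 WT rTreg counts, it was -0.52 (adjusted p = 0.817). The difference between these effects was 2.49 (SE 0.80, adjusted p = 0.240), and it passed with no filter on low counts (2.53, adjusted p = 0.00894).

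Of 11 listed EGF family ligands, receptors and enzymes that shed them, 10 were in the files and 9 were tested. Il1rl1, the ST2 receptor for IL-33, a cytokine known to induce Areg, rose in aTreg cells of both genotypes (3.64 in WT, 6.48 in cKO, log2). Its genotype effect was -1.94 in rTreg cells (SE 0.27, adjusted p = 0.00523) and 0.91 in aTreg cells (SE 0.11, adjusted p = 0.00524), and the difference between the effects was called (2.84, SE 0.29, adjusted p = 0.0203). All of these Il1rl1 genotype calls were lost without the replicate block (adjusted p = 0.163, 0.351 and 0.424 in that order). Erbb2 rose in aTreg cells, by 2.33 and 3.71, on at most 19 counts a library. Egfr had at most 22 counts and fell in cKO aTreg against cKO rTreg cells (-3.20), and Egf fell in that comparison too (-1.44).

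Gzmb, the serine protease of cytotoxic granules, had 4 and 4 counts in WT rTreg, 1 and 4 in cKO rTreg, 71 and 188 in WT aTreg and 197 and 200 in cKO aTreg cells. Its mean was 9.92 ± 3.01 CPM in WT and 15.5 ± 1.51 CPM in cKO aTreg cells (SD, n = 2), against 0.159 to 0.368 CPM in the rTreg libraries. The aTreg level was 30.9-fold that of rTreg cells in WT (exact counting interval 15.5 to 72.3) and 61.8-fold in cKO (26.3 to 192), with adjusted p = 7.90e-05 and 2.74e-05. Between genotypes the log2 difference in aTreg cells was 0.64 (SE 0.22, adjusted p = 0.129), with the cKO library higher in both pairs (2.12-fold and 1.19-fold), and in rTreg cells it was -0.47 (SE 0.74, adjusted p = 0.747). Neither passed the test.

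Prf1, the pore-forming partner of granzymes, was lower in most aTreg libraries. Counts were 111 and 192 in WT rTreg, 69 and 125 in cKO rTreg, 22 and 169 in WT aTreg and 42 and 46 in cKO aTreg cells, or 10.2 and 15.1, 11 and 9.03, 2.41 and 10.8, and 3.52 and 3.31 CPM. Both cKO aTreg libraries and WT aTreg replicate 1 lay below every rTreg library, and WT aTreg replicate 2 lay among them. Prf1 fell in cKO aTreg against cKO rTreg cells (log2 -1.52, SE 0.50, adjusted p = 0.0444). In WT cells the difference was -0.93 (SE 0.45, adjusted p = 0.153), and without WT aTreg replicate 2 it was -2.33 (adjusted p = 0.00437). The cKO call was lost without the replicate block (adjusted p = 0.108), in limma-voom (0.0646), on log2 FPKM (0.107 to 0.222 in 3 fits), and without any of WT rTreg replicate 1 (0.0652), WT rTreg replicate 2 (0.0658), cKO rTreg replicate 1 (0.255), cKO aTreg replicate 1 (0.0701) or cKO aTreg replicate 2 (0.290).

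Between genotypes in aTreg cells the Prf1 difference was -0.94 (SE 0.51, adjusted p = 0.310), and it turned to 0.44 (adjusted p = 0.694) without WT aTreg replicate 2 and became -1.61 (adjusted p = 0.0278) without WT aTreg replicate 1. WT aTreg replicate 2 also stood apart in genes of natural killer cells. Klrd1 had 42 counts, Klrk1 40, Klrc1 15 and Ncr1 15 in it, against at most 6, 6, 5 and 3 in the other 7 libraries. Gzma was not particular to it, with 76 counts against 6 in WT aTreg replicate 1 and 50 and 77 in the cKO aTreg libraries. The 6 listed NK markers summed to 7.05 CPM in it and 2.12 to 5.32 CPM in the other libraries. In the rTreg libraries, which held 9.03 to 15.1 CPM of Prf1, Ncr1 had at most 2 counts and Klrd1 at most 6. The part of NK cells in the Prf1 level of WT aTreg replicate 2 was not tested.

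**Figure D2:**
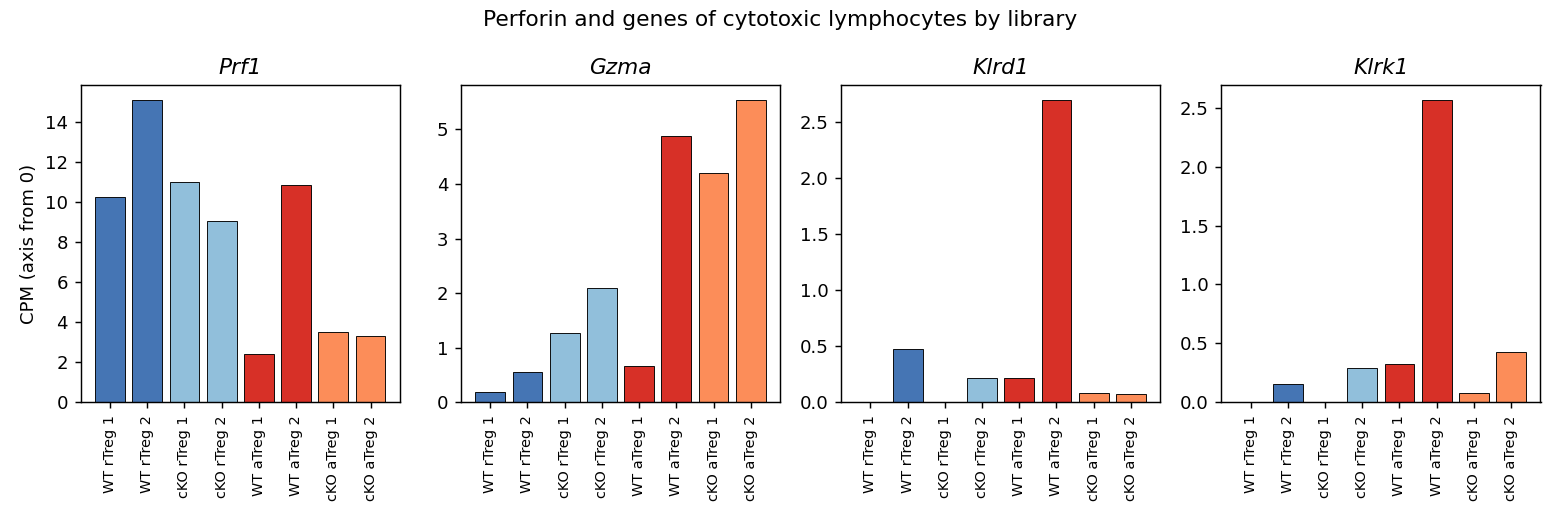
CPM of Prf1, Gzma, Klrd1 and Klrk1 in each of the 8 libraries, as bars from 0. Prf1 is at 9.03 CPM or more in the 4 rTreg libraries and in WT aTreg replicate 2, and that aTreg library has the highest Klrd1 (2.69 CPM) and Klrk1 (2.56 CPM).

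Of the 16 other cytotoxic granule genes tested, 3 rose and 1 fell in WT aTreg cells and 4 rose and 0 fell in cKO aTreg cells. Of all genes, 9.50% rose and 2.83% fell in WT, and 11.3% rose and 4.39% fell in cKO. Stx11, a syntaxin of granule release, rose by 3.29 and 3.87 on the log2 scale, Nkg7, a granule membrane protein, by 3.13 and 3.44, and Gzma by 2.85 and 1.63. Ctsw, a cysteine protease, fell in WT aTreg cells (-1.10). Rab27a, which docks granules, rose in cKO aTreg against WT aTreg cells (0.82, SE 0.099, adjusted p = 0.00500), and Serpinb6b, a serpin, rose in cKO rTreg cells (0.60, SE 0.16, adjusted p = 0.0496). Both genotype calls were lost without the replicate block (adjusted p = 0.110 and 0.197).

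Klrg1, the inhibitory receptor of differentiated effector cells, was near 0 in resting cells. Counts were 1 and 2 in WT rTreg and 0 and 2 in cKO rTreg cells, at or under the floor, then 348 and 524 in WT aTreg and 1106 and 949 in cKO aTreg cells. These are 38.2 and 33.6 CPM against 92.7 and 68.2 CPM, and the aTreg groups did not overlap. The aTreg level was 277-fold the rTreg level in WT (exact counting interval 94.6 to 1348) and 800-fold in cKO (221 to 6611). Klrg1 rose in cKO aTreg against WT aTreg cells by 1.15 on the log2 scale (SE 0.12, adjusted p = 0.00282), 2.43-fold and 2.03-fold in the 2 pairs. The call held without any single library (adjusted p of at most 0.0379) and was lost without the replicate block (1.17, adjusted p = 0.0597) and on log2 FPKM (adjusted p of 0.0528 to 0.190 in 3 fits). Of 10 listed lectin-like receptors 9 were in the files and 2 were tested, Klrb1c and Klrb1f, and both rose in aTreg cells of both genotypes (5.68 and 2.35 in WT, 2.54 and 2.91 in cKO). Of all genes, 9.50% rose in WT and 11.3% in cKO. These sizes rest on few rTreg counts. Klrb1c had 0 and 1 in WT and 3 and 5 in cKO rTreg cells, and Klrb1f had 4 and 14 and 2 and 3.

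Lrrc32, which codes for GARP, was abundant in every library and did not follow the activation state. It had 4442 and 3896 counts in WT rTreg, 3616 and 4944 in cKO rTreg, 4080 and 3771 in WT aTreg and 6024 and 4834 in cKO aTreg cells. The levels of 409 and 306, 576 and 357, 448 and 242, and 505 and 348 CPM overlapped between all neighbouring groups. The subset differences were -0.10 in WT (SE 0.10, adjusted p = 0.484) and -0.11 in cKO cells (SE 0.10, adjusted p = 0.410). The genotype differences were 0.35 in rTreg (SE 0.10, adjusted p = 0.0629) and 0.34 in aTreg cells (SE 0.10, adjusted p = 0.0918), higher in cKO in all 4 pairs and not called.

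Of 12 listed genes that store and release TGF-β, 8 were tested, and 3 rose in aTreg cells in WT and 3 in cKO, with 0 falling. Of all genes, 9.50% rose and 2.83% fell in WT, and 11.3% rose and 4.39% fell in cKO. Itgb8, the integrin chain that activates TGF-β bound to GARP, rose by 2.80 in WT and 4.16 in cKO aTreg cells, and Ltbp4, a latent TGF-β binding protein, by 2.75 and 4.61. Both fell in cKO rTreg cells, Itgb8 (-1.11, SE 0.20, adjusted p = 0.0145) and Ltbp4 (-2.25, SE 0.56, adjusted p = 0.0403, on 9 and 9 against 1 and 2 counts). Without the replicate block the Itgb8 call held (adjusted p = 0.0456) and the Ltbp4 call was lost (0.0671). Tgfb1 itself was between 1468 and 3967 counts in each library and was not called between genotypes or subsets.

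Penk, the precursor of enkephalins, had 12 and 31 counts in WT rTreg, 33 and 46 in cKO rTreg, 714 and 854 in WT aTreg and 1706 and 1421 in cKO aTreg cells. In CPM this was 78.3 and 54.8 in WT aTreg against 143 and 102 in cKO aTreg cells, with no overlap between the 4 groups. It rose in aTreg cells by 5.15 in WT (SE 0.25, adjusted p = 1.22e-05) and 4.87 in cKO (SE 0.22, adjusted p = 5.30e-06). It also rose in cKO aTreg against WT aTreg cells (log2 0.88, SE 0.16, adjusted p = 0.0188), by 1.83-fold and 1.87-fold in the pairs. That genotype call was lost without the replicate block (adjusted p = 0.267), in DESeq2 (0.344), on log2 FPKM (0.189 to 0.351 in 3 fits), and without any of the 4 aTreg libraries: WT replicate 1 (0.0575), WT replicate 2 (0.154), cKO replicate 1 (0.117) or cKO replicate 2 (0.153). In rTreg cells the difference was 1.17 (SE 0.38, adjusted p = 0.0862) and rested on single libraries: it was 2.15 without WT rTreg replicate 2 (adjusted p = 0.0111, called) and 0.50 without WT rTreg replicate 1 (adjusted p = 0.341).

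The enzymes that cut the precursor were unevenly present. Pcsk1, a prohormone convertase, rose in WT aTreg cells by 3.34 (7 and 30 counts against 1 and 2) and reached 50 and 91 counts in cKO aTreg cells, against 0 and 0 in cKO rTreg cells. It was higher in cKO than in WT aTreg cells (1.99, SE 0.31, adjusted p = 0.0161). This genotype call was lost without the replicate block (adjusted p = 0.198). Cpe, a carboxypeptidase, rose in aTreg cells by 2.02 and 2.21. Pcsk2 and the opioid receptor gene Oprd1 had at most 1 count in any library.

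Lgals1, which codes for galectin-1, was the member that differed between genotypes in both subsets. Counts were 382 and 467 in WT rTreg, 331 and 779 in cKO rTreg, 800 and 1362 in WT aTreg and 1871 and 2407 in cKO aTreg cells. In CPM these are 35.2 and 36.7, 52.8 and 56.3, 87.8 and 87.3, and 157 and 173, so no neighbouring groups overlapped and the replicates lay close together. It rose with the aTreg state by 1.28 (SE 0.067) in WT and 1.60 (SE 0.065) in cKO cells (adjusted p = 1.55e-05 and 4.29e-06). Lgals1 rose in cKO rTreg cells by 0.60 (SE 0.069, adjusted p = 0.00267), 1.499-fold and 1.53-fold in the pairs, just past the 1.5-fold threshold. Without WT rTreg replicate 2 it was 0.583 (adjusted p = 0.0389), with no filter on low counts 0.581 and on log2 FPKM 0.565 to 0.574, so the call was lost there by the fold threshold alone. In cKO aTreg cells it rose by 0.91 (SE 0.063, adjusted p = 0.000641), 1.79-fold and 1.98-fold in the pairs, and this call held without the replicate block (adjusted p = 0.0157) and without any single library (at most 0.0157).

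In a list of other galectins and the binding protein Lgals3bp, 6 genes were tested. Lgals3 (galectin-3) rose in aTreg cells by 3.73 in WT and 4.21 in cKO, and it rose in cKO aTreg against WT aTreg cells by 1.34 (SE 0.31, adjusted p = 0.0435). Lgals3bp, a galectin-3 binding protein, rose in cKO cells in both subsets (0.63 in rTreg, adjusted p = 0.0236, and 0.79 in aTreg, adjusted p = 0.0159). The genotype calls of Lgals3 and Lgals3bp were lost without the replicate block. The adjusted p was then 0.239 for Lgals3, and 0.139 and 0.131 for Lgals3bp in rTreg and aTreg cells. Lgals9 and Lgals8 were not called between genotypes or subsets.

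Counted over the 10 genes, a genotype difference was called for 1 in rTreg cells (Lgals1) and 3 in aTreg cells (Klrg1, Lgals1 and Penk). All of these were higher in cKO, with 0 lower in either subset. The Klrg1 and Penk calls were lost without the replicate block. In each subset 6 of the 10 were under an unadjusted p of 0.05, as were 28.5% of all genes in rTreg and 23.3% in aTreg cells. Of all genes, 2.90% rose and 2.70% fell in rTreg cells and 2.37% rose and 1.66% fell in aTreg cells at the same thresholds (adjusted p under 0.05 and 1.5-fold). The median log2 difference of the members was 0.037 in rTreg and 0.42 in aTreg cells, against 0.0029 and 0.0018 over all genes. The rTreg median lies between the values of Klrg1 and Lrrc32. It includes Il10 and Klrg1, whose rTreg counts were at or under the floor, so no reading is drawn from it. A subset difference in the genotype effect was called for 0 of the 10 by edgeR, where 0.330% of all genes were called, and limma-voom and DESeq2 also called 0. By edgeR 5 of the 10, and 12.8% of all genes, were under an unadjusted p of 0.05 for that difference, and 4 of the 10 were by each of the other tools. The genotype effects on Klrg1 and Penk, called in aTreg cells, were therefore not shown to differ from those in rTreg cells. For Il10 and Klrg1 this test could not decide, because their rTreg counts were at the floor (SE of the difference 1.19 and 1.06).

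**Figure D3:**
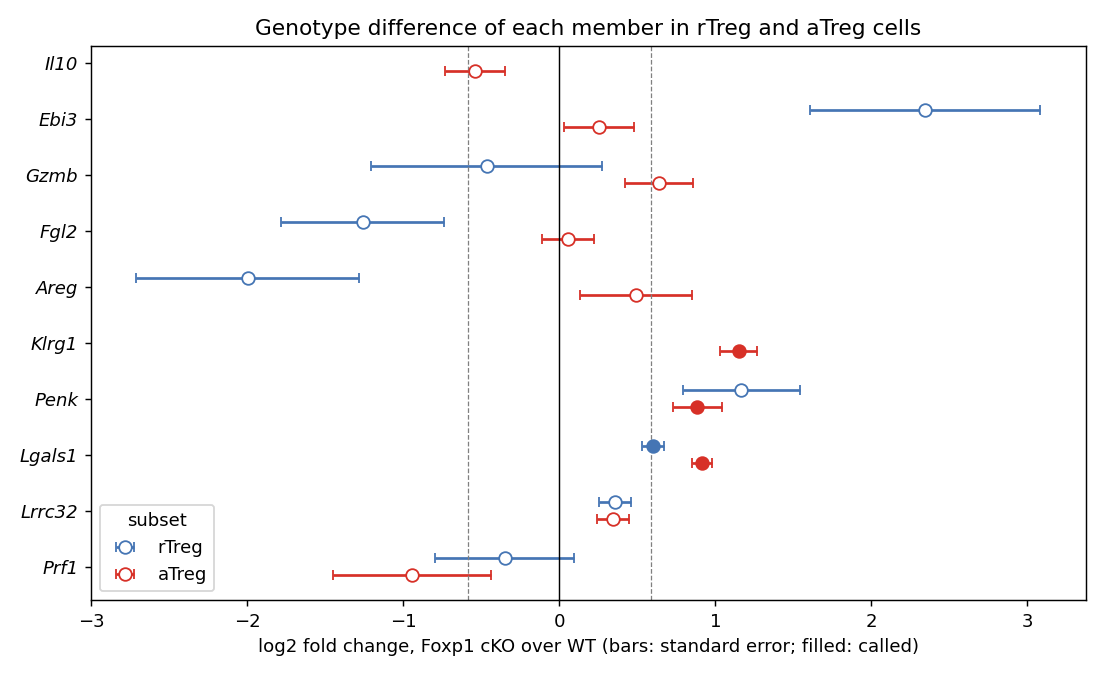
Log2 fold change of Foxp1 cKO over WT, with its standard error, for each member in rTreg and aTreg cells; filled points passed the test and the dashed lines mark 1.5-fold. Lgals1 is filled in both subsets, Klrg1 and Penk are filled in aTreg cells, and Il10 and Klrg1 have no rTreg point because their rTreg counts were at the floor.

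Other suppressor genes of Treg cells were set beside the members, in a list also chosen with earlier results of these data known. Of 17 tested, 12 rose and 1 fell in aTreg cells of each genotype, with a median log2 fold change of 1.41 in WT and 1.71 in cKO. Of all genes, 9.50% rose and 2.83% fell in WT, and 11.3% rose and 4.39% fell in cKO. Tigit, an inhibitory receptor, rose by 7.38 and 6.09, Itgae (CD103) by 5.26 and 6.24 and Lag3 by 3.72 and 3.77. Havcr2 (TIM-3) rose by 4.56 (SE 0.79) and 6.22 (SE 0.80). Its rTreg counts, 2 and 0 in WT and 1 and 0 in cKO, were under the floor, so the sizes of its rises are uncertain. Gpr83, an orphan receptor, fell (-1.20 in WT and -1.94 in cKO). In cKO rTreg cells 4 of them fell, Gpr83 (-1.41), Entpd1, the ectoenzyme CD39 (-1.32), Itgb8 (-1.11) and Ctla4, the inhibitory receptor (-0.89), and 0 rose. Of all genes, 2.70% fell and 2.90% rose there. Without the replicate block the rTreg genotype call of Ctla4 was lost (adjusted p = 0.506), while those of Gpr83, Entpd1 and Itgb8 held (at most 0.0456). Ctla4 was lower in replicate 2 than in replicate 1 (-1.01, SE 0.054, adjusted p = 8.89e-05). In cKO aTreg cells Nrp1 rose (0.68) and Gpr83 fell (-2.16), where 2.37% of all genes rose and 1.66% fell. Ctla4 was also lower there (-0.51, SE 0.075, adjusted p = 0.0103) but under the 1.5-fold threshold, so it was not called. Without the replicate block the aTreg genotype call of Nrp1 was lost (adjusted p = 0.191) and that of Gpr83 held (0.0257). Of the 17, 0 had a called difference between the genotype effects, where 0.330% of all genes were called.

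The replicate number itself separated some members. This contrast, replicate 2 against replicate 1 over 4 libraries each, was added after the counts were seen. Il10 (-1.86, SE 0.19, adjusted p = 0.00153), Areg (-1.81, SE 0.32, adjusted p = 0.00916) and Lrrc32 (-0.63, SE 0.072, adjusted p = 0.00223) were lower in replicate 2, 3 of the 10 members where 18.5% of all genes were called at an adjusted p under 0.05. Areg and Lrrc32 were lower in replicate 2 in every group, and Il10 in every group but WT rTreg, where it had 0 and 1 counts. Of the transcription factors listed for Il10, Nfil3 (-1.66, SE 0.22, adjusted p = 0.00403) and Bhlhe40 (-1.67, SE 0.11, adjusted p = 0.000236) were lower in replicate 2 as well. The Il10 call was lost on log2 FPKM (adjusted p of 0.168 to 0.336 in 3 fits). Sex, any sequencing round and the replicate number cannot be told apart, and the genotype and subset tests carry the replicate number as a block.

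**Figure D4:**
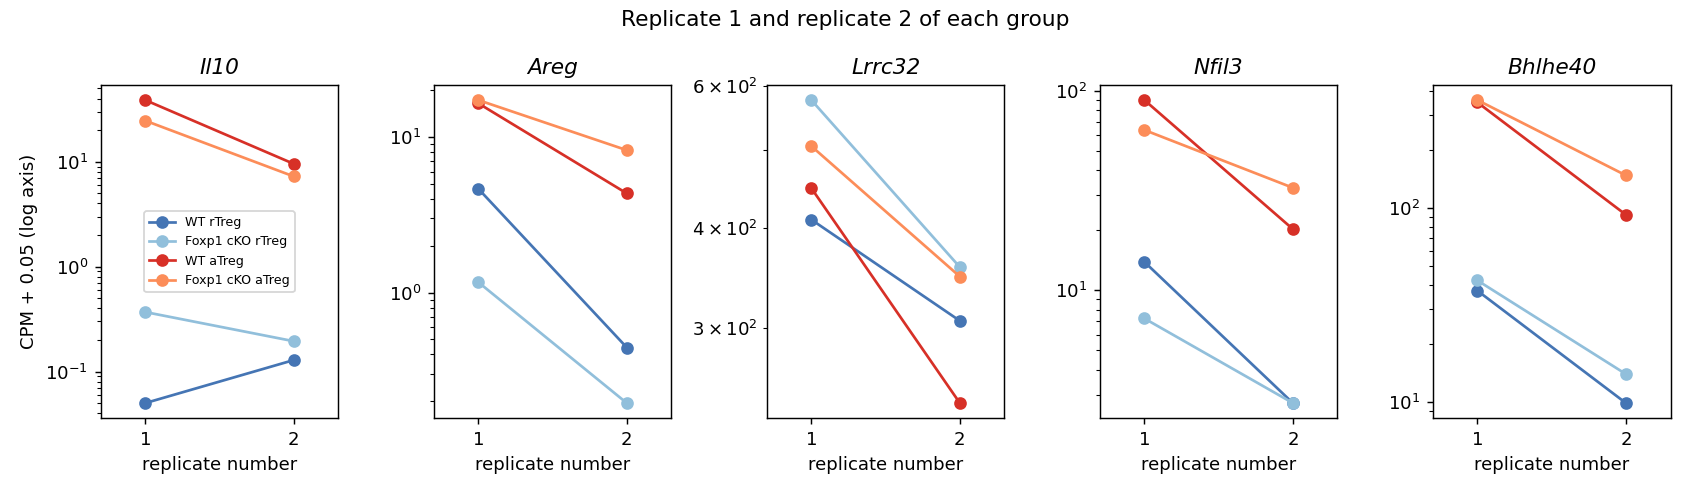
CPM plus 0.05 (log axes of differing range) of Il10, Areg, Lrrc32, Nfil3 and Bhlhe40 in replicate 1 and replicate 2 of each group, joined by lines. Replicate 2 is lower than replicate 1 in all 4 groups for Areg, Lrrc32, Nfil3 and Bhlhe40, and in 3 of 4 for Il10.

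Across the 8 libraries the levels of the 8 genes that rose in WT aTreg cells went together, as a description over libraries that share the subset difference. Their pairwise Pearson correlations of log2 CPM ran from 0.669 to 0.996 (28 pairs, median 0.920), and without Areg from 0.829 to 0.996. Prf1 was opposed to all 8, at -0.811 to -0.730, and Lrrc32 was at -0.342 to 0.231 with the other 9 members. By the same measure, the gene whose pattern was most like Klrg1 was Mapre2 (0.999), like Gzmb Antxr2 (0.996), like Lgals1 Nptn (0.997), like Fgl2 Eea1 (0.997), like Ebi3 Dnph1 (0.994), like Il10 Zfand4 (0.991) and like Areg Eno2 (0.982). Itgae and Cxcr6 were next for Gzmb, Nfil3 was next for Areg (0.981), Il12rb1 was among the 3 nearest for Penk (0.997), Tmem19 for Lrrc32 (0.980) and Vipr1 for Prf1 (0.980), and Vipr1 had 80 and 949 counts in the 2 WT aTreg libraries.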

How the data were processed

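mRNA was sequenced from 8 libraries of sorted Treg cells in 4 groups of 2 replicates (WT or Foxp1 cKO, rTreg or aTreg), grouped by the titles in the labels. The authors deposited read counts per gene, made from paired-end reads trimmed with trim_galore, with duplicates removed by Picard, and counted with htseq-count; the submitters' processing notes name HISAT2 2.0.5 and mm10, and the gene annotation is not given in the sources used here. The deposited FPKM values equal these counts divided by library total and a length per gene (relative spread of at most 7.06e-06 over 10269 genes), so they hold no further measurement; the authors made both without pooling replicates.

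The counts entered edgeR 4.0.16 under R 4.3.3 (glmQLFit and glmQLFTest, TMM, filterByExpr with a minimum count of 10), in 1 fit of all 8 libraries, whose terms were the 4 group means and a block for replicate number. Of 27594 genes, 14540 were tested and p-values were adjusted by Benjamini-Hochberg over all of them. Calls needed an adjusted p under 0.05 and 1.5-fold (genotypes) or 2-fold (subsets); the interaction and the replicate contrast used the adjusted p alone. Standard errors are the log2 fold change divided by the square root of the F statistic. Levels are CPM with TMM scaling, and intervals are exact at 95% and cover counting error only. The block follows the study's stated pairing of samples against a batch effect; deviations of same-numbered libraries from their group means correlated at 0.38 to 0.60 in the 4 pairs of groups compared.

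The 10 members and the gene lists were chosen with earlier results of these data known. All 10 members are named; of the lists, called genes are named by size of change, at most 4 per list, with genes near 0 counts (list genes named beyond these, mainly for a genotype call, were chosen after their values were seen), and likeness is the Pearson correlation of log2 CPM (prior count 2) over the 8 libraries, of which the 3 nearest genes per member were taken. Alternatives were a fit without the block, limma-voom, limma 3.58.1 on log2 FPKM, DESeq2 1.42.0, median-of-ratios size factors, other filters, the libraries of a comparison alone and leaving out each library. The fit was tested on simulated data. A result for 1 marker gene is not reported here.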

Additional observations from a re-analysis of the deposited data

How the results depend on the processing

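With the replicate block left out, Klrg1 and Penk lost their call in aTreg cells, so that 1 of 10 members was called between genotypes there in place of 3, and Areg lost its call in WT aTreg against rTreg cells and Prf1 in cKO aTreg against rTreg cells. The same count of 1 was given by limma on log2(FPKM + 1) and log2(FPKM + 0.1) with a mean FPKM of at least 1 and on log2(FPKM + 1) with no filter. In rTreg cells these 3 FPKM fits called 0 members between genotypes in place of 1, with Lgals1 at 0.565 to 0.574 (log2), under the fold threshold. No filter on low counts called 4 there (Ebi3, Fgl2, Areg and Penk, but not Lgals1 at 0.581), and the libraries of that comparison alone called 2. With no filter 1 member, Areg, was called for the difference between the genotype effects in place of 0. For replicate 2 against replicate 1, limma-voom called 5 and log2(FPKM + 1) with no filter called 1, in place of 3. Some subset calls of listed genes were also lost with the block left out. The adjusted p was then 0.0581 for Bhlhe40 and 0.0825 for Gzma in WT cells. In cKO cells it was 0.229 for Gzma, 0.319 for Egf and 0.0786 for Egfr.

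Leaving out 1 library at a time gave 1 to 2 members called between genotypes in rTreg cells, 2 to 3 in aTreg cells, 7 to 9 between subsets in WT, 8 to 9 in cKO, 0 to 0 for the difference between effects and 3 to 4 for the replicate number. Where an arm then held 1 library, it was assumed to vary like the others.

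In 23 of 1012 values for single members the direction changed, with 0 of them called. With a library left out, Prf1 ran from -0.88 to 0.25 between genotypes in rTreg and from -1.61 to 0.44 in aTreg cells, Fgl2 from -0.33 to 0.43 and Areg from -0.11 to 1.16 in aTreg cells, and Lrrc32 from -0.278 to 0.065 between WT subsets. The difference between effects ran from -0.18 to 0.17 for Lrrc32, from -1.27 to 0.39 for Penk and from -1.24 to 0.80 for Prf1, and Gzmb ran from -0.15 to 0.56 between replicate numbers. Under other settings the difference between effects for Lrrc32 was 0.004 in DESeq2 and with median-of-ratios factors and 0.022 with no filter, and for Penk it was 0.051 on log2(FPKM + 1) with and without a filter. For replicate 2 against replicate 1, Ebi3 was 0.025 in DESeq2 and 0.371 on log2(FPKM + 0.1), and Klrg1 was 0.154 on log2(FPKM + 0.1). The cause of these changes was not tested. Of the other values, 936 kept direction and side of the threshold, 34 lost and 19 gained a call. Genes with few rTreg counts (Il10, Ebi3, Gzmb and Klrg1) limit what the depth can show in resting cells.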
